A study of Mus musculus with 10 samples.

Results

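The contractile apparatus of smooth muscle and myofibroblasts was followed through 10 genes: Acta2, Myh11, Tagln, Cnn1, Actg2, Des, Smtn, Lmod1, Mylk and Synpo2. They were picked by name from a table of 54532 genes, and all 10 were among the 15388 genes with a mean of at least 0.5 FPKM (fragments per kilobase of gene, scaled to the size of the library) that were tested. The lungs came from WT mice of the C57/BL6 strain at postnatal day 14 (P14), 5 in each group. In the IncPBF group (increased pulmonary blood flow), fistula surgery at P7 joined the abdominal aorta to the inferior vena cava with a needle, which sends arterial blood back to the right heart and the lung. The sham group had the same anesthesia and laparotomy at P7 without the puncture. Male or female pups were used according to the methods, the labels give no sex or litter, and nothing in the labels gives the blood flow of a sequenced lung.

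Smooth muscle shortens when myosin filaments pull on actin filaments that are anchored through desmin and actin-binding proteins. Calcium turns on myosin light chain kinase, which phosphorylates the regulatory light chain of myosin, and myosin phosphatase reverses this. In the lung these proteins are found in the muscle of airways and vessels, and several of them, alpha smooth muscle actin above all, are also made by the alveolar myofibroblasts that raise the septa between alveoli. Many of the genes are controlled by serum response factor (SRF), which binds a sequence called the CArG box together with myocardin or myocardin-related factors.

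Expression of 6 of the 10 genes was higher in IncPBF lungs and that of none was lower. These were both smooth muscle actins (Acta2 and Actg2), the heavy chain of smooth muscle myosin (Myh11), desmin (Des), smoothelin (Smtn) and, by a small margin, the light chain kinase (Mylk). The rise of the actins was about 3-fold in the group means, that of Myh11 and Des about 1.7-fold, and that of Smtn about 1.4-fold. Leiomodin 1 (Lmod1) and synaptopodin 2 (Synpo2) had nearly equal means in the groups, and transgelin (Tagln) and calponin 1 (Cnn1) did not pass the test. For comparison, 16.1% of all genes tested were higher and 16.2% were lower (32.3% in either direction) by the same criterion, a Benjamini-Hochberg adjusted p under 0.05 in limma on log2(FPKM + 0.1). The median log2 fold change was 0.62 over the 10 genes and 0.01 over all genes tested.

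A few properties of the lungs bear on every value. Sequencing gave 16103423 to 20318525 fragments on genes per lung, and 1 fragment on a gene of 1 kb was worth 0.0482 to 0.0580 FPKM. In IncPBF lungs 2 to 5, Xist (the RNA that coats the silenced X chromosome) stood at 52.4 to 66.5 FPKM, against at most 0.0770 FPKM in IncPBF lung 1 and the 5 sham lungs, so that the surgery and the sex-linked pattern could be separated only through IncPBF lung 1. Of the 5 sex-linked genes listed, Xist was called higher and the 4 Y-linked genes lower. Genes of the airway epithelium summed to 141 FPKM in sham lung 5 and to 5026 to 12549 FPKM in the other 9 lungs. Results that change with these lungs are given with and without them where they are described. The lungs were sequenced whole, so that more cells of a type and more RNA per cell cannot be told apart. The tissue label was borne out by Sftpc, the surfactant gene of type II alveolar cells, at a mean of 10428 FPKM in IncPBF lungs and 12095 FPKM in sham lungs.

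The stretch of DNA just upstream of 2 of the genes is shown first, since SRF binding through CArG boxes is the textbook route to this set of genes and the pair differed in its response. Acta2 lies on the minus strand of chromosome 19 and Lmod1 on the plus strand of chromosome 1. The 250 bases before the RefSeq transcription start in GRCm38.p6 are chr19:34255374-34255623 for Acta2 and chr1:135324563-135324812 for Lmod1, read 5′ to 3′ along the gene, with CArG boxes that have up to 1 mismatch to the consensus in capitals.
Acta2: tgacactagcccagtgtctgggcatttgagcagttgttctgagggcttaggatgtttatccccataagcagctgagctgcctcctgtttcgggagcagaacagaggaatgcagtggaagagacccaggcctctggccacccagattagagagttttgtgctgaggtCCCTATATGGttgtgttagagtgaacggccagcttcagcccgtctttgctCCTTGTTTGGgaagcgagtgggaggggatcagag
Lmod1: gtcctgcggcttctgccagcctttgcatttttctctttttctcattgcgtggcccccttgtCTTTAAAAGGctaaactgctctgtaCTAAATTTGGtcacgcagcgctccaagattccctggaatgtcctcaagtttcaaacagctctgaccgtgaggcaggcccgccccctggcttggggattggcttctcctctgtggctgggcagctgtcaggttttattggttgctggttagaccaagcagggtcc

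Acta2 has its boxes 84 to 75 and 34 to 25 bases before the start, and Lmod1 has its boxes 189 to 180 and 164 to 155 bases before it. An exact CArG box, which reads the same way on either strand and was searched on both, was in none of the 7 matched upstream windows (Myh11, Tagln and Actg2 had no entry in the table) and in 1.47% of 32851 windows of the same length. With up to 1 mismatch, the 2 windows shown held 2 boxes each and the other 5 matched windows held none, against 18.6% of all windows with at least 1 and 2.96% with at least 2. The RefSeq starts do not all coincide with the gene bounds given below. The windows of Mylk (chr16:34784700-34784949) and Smtn (chr11:3539293-3539542) lie inside the spans given for these genes. In the GENCODE M21 annotation Acta2 runs from 34241090 to 34255590, and both boxes of Acta2 lie inside that span. Acta2 and Lmod1, the pair with such boxes, had log2 fold changes of 1.57 and 0.01, and a relation of boxes to response was not tested. The matches are letters in a window of 250 bases and say nothing of SRF binding.

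Acta2 encodes alpha smooth muscle actin, the usual marker of smooth muscle and of myofibroblasts (ENSMUSG00000035783, chromosome 19 from 34241090 to 34255336 in the table). It was 213, 316, 359, 409 and 266 FPKM in IncPBF lungs 1 to 5 and 90.9, 126, 156, 106 and 60.3 FPKM in sham lungs 1 to 5. The lowest IncPBF lung, lung 1, lay above the highest sham lung. The mean rose from 108 ± 36.0 to 313 ± 76.6 FPKM (SD, n = 5 lungs a group), or by 1.57 on the log2 scale (standard error, SE, 0.24, limma adjusted p = 0.000783). Only 0.416% of the genes tested were called higher with a log2 fold change of this size or more.

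Actg2, the gamma smooth muscle actin best known from the gut and bladder (ENSMUSG00000059430, chromosome 6 from 83512905 to 83536265), moved with Acta2 at a lower level. Its values were 27.1, 52.2, 51.7, 69.0 and 36.7 FPKM in the IncPBF lungs and 14.5, 20.6, 21.4, 12.5 and 7.30 FPKM in the sham lungs. The groups did not overlap, and the log2 fold change was 1.65 (SE 0.31, limma adjusted p = 0.00234). Over the last 1110 bases of the coding sequence, aligned at the stop codon, Actg2 was 84.4% identical to Acta2 with a longest shared run of 29 bases. The cytoplasmic actins Actb and Actg1 shared runs of 47 and 56 bases with Acta2, and how fragments that match several actins were assigned is not given in the sources used here.

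The make-up of the actins shifted. Among the summed FPKM of Acta2, Actg2, Actc1, Acta1, Actb and Actg1, the share of Acta2 was 8.87% ± 2.60 in sham lungs and 17.0% ± 2.91 in IncPBF lungs, with no overlap (exact permutation p = 0.00794, the smallest that 5 against 5 lungs allow). The margin was small, with IncPBF lung 1 at 12.9% and the highest sham lung at 12.6%. The share of Actg2 rose from 1.26% ± 0.443 to 2.55% ± 0.697 (exact permutation p = 0.0159). The share of Actb fell from 55.5% ± 2.95 to 50.6% ± 1.91 (exact permutation p = 0.0159) and that of Actg1 from 32.0% ± 2.19 to 27.0% ± 2.70 (exact permutation p = 0.00794). In FPKM, however, Actb and Actg1 were themselves higher in IncPBF lungs, with log2 fold changes of 0.47 and 0.36, so that the smaller share went with a smaller rise. Of the 6 shares compared, the shares of Acta2, Actg2, Actb and Actg1 had a Benjamini-Hochberg adjusted p of 0.0238 each, from the exact permutation tests. The shares of a lung are parts of the same sum, so that a rise of some lowers others and these results are not separate. In IncPBF lung 1 the share of Actg2 was 1.64%, inside the sham range of 0.651% to 1.73%. Its share of Actb was 53.8%, inside the sham range of 51.0% to 58.6%. The shares were not fitted with log2 Xist as a covariate.

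Myh11, the motor of smooth muscle and a gene more restricted to that tissue than Acta2 (ENSMUSG00000018830, chromosome 16 from 14194535 to 14291372), rose less than the actins. It was 26.0, 34.5, 35.5, 42.4 and 27.8 FPKM in IncPBF lungs and 22.2, 23.7, 23.5, 16.3 and 14.7 FPKM in sham lungs. The IncPBF lungs all lay above the sham lungs, although lung 1 did so by a small margin. The log2 fold change was 0.73 (SE 0.17, limma adjusted p = 0.00665).

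Des, the intermediate filament of muscle cells (ENSMUSG00000026208, chromosome 1 from 75360329 to 75368579), changed by almost the same amount as Myh11. Its values were 35.7, 48.9, 50.2, 59.3 and 39.3 FPKM in IncPBF lungs against 25.8, 31.2, 29.9, 25.0 and 25.6 FPKM in sham lungs, a log2 fold change of 0.74 (SE 0.13, limma adjusted p = 0.00149). No sham lung reached the lowest IncPBF lung. Smtn, an actin-binding protein of contractile smooth muscle (ENSMUSG00000020439, chromosome 11 from 3517523 to 3540612), was 27.2, 29.6, 35.2, 33.6 and 27.2 FPKM in IncPBF lungs and 17.0, 22.5, 22.5, 23.1 and 22.2 FPKM in sham lungs. Its log2 fold change was 0.51 (SE 0.10, limma adjusted p = 0.00317), again without overlap, and sham lung 1 lay well below the other 4 sham lungs.

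Mylk, the kinase that starts contraction, had the narrowest spread of the set (ENSMUSG00000022836, chromosome 16 from 34745210 to 35002420). It was 51.9, 51.1, 54.7, 51.7 and 52.4 FPKM in IncPBF lungs and 48.6, 49.6, 47.3, 45.8 and 48.6 FPKM in sham lungs. The groups did not overlap, but the log2 fold change was 0.13 (SE 0.04, limma adjusted p = 0.0405). The call was lost when any lung other than sham lung 2 was left out, with adjusted p values of 0.0451 to 0.0888 over the 10 fits. The gene also gives rise to a long nonmuscle kinase and to telokin, which a value per gene does not separate.

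The proteins that nucleate and bundle actin filaments gave values that overlapped. Lmod1, which starts new actin filaments in smooth muscle (ENSMUSG00000048096, chromosome 1 from 135324807 to 135368065), was 5.46, 4.68, 4.69, 6.88 and 4.06 FPKM in IncPBF lungs and 4.64, 6.04, 5.49, 4.52 and 4.67 FPKM in sham lungs. Its log2 fold change was 0.01, with a 95% confidence interval from -0.29 to 0.30, which leaves out changes of the size seen for Myh11 and Des in this fit. With log2 Xist as a covariate, Lmod1 was at 0.10 (SE 0.24), Myh11 at 0.39 and Des at 0.38. Changes of the latter size are then not left out for Lmod1. Synpo2, which bundles actin in muscle (ENSMUSG00000050315, chromosome 3 from 123076519 to 123236149), lay between 2.65 and 3.48 FPKM in IncPBF lungs and between 2.78 and 3.37 FPKM in sham lungs, with a log2 fold change of -0.01 and an interval from -0.20 to 0.19.

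Cnn1, which binds actin and slows the myosin motor (ENSMUSG00000001349, chromosome 9 from 22099216 to 22109630), was the most variable of the 10. It was 7.52, 15.4, 8.86, 23.6 and 7.71 FPKM in IncPBF lungs and 7.47, 9.33, 12.6, 4.93 and 0.756 FPKM in sham lungs. Every IncPBF lung lay above the sham median, but only 2 lay above the highest sham lung, and the log2 fold change of 1.13 had an SE of 0.64 (limma adjusted p = 0.205). Sham lung 5, with 36 fragments on Cnn1, was the lung with the low airway genes, and without it the log2 fold change was 0.48. Once the group mean was subtracted, Cnn1 and the mean of the 6 airway epithelium genes were correlated over the 10 lungs with r = 0.955, and over the 9 lungs without sham lung 5 with r = 0.845. The same correlation was 0.760 for Acta2, 0.754 for Actg2 and 0.682 for Myh11 over the 10 lungs, and 0.498, 0.537 and 0.580 without sham lung 5. With the airway mean as a covariate, an alternative chosen after the data were seen, the log2 fold change of Cnn1 was 0.55 (limma adjusted p = 0.0722), and Acta2, Actg2 and Myh11 were still called higher, by 1.40, 1.43 and 0.63. Actc1, of the cardiac muscle list below, was lowest in sham lung 5 (6.42 FPKM) and highest in IncPBF lung 4 (79.7 FPKM), as Cnn1 was. Its relation to Cnn1 was not tested, so the correlation with airway genes is not shown to be particular to them. The part of airway tissue in these values was not tested further.

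Tagln, an abundant actin-binding protein in contractile smooth muscle (ENSMUSG00000032085, chromosome 9 from 45929619 to 45936058), stood at a low level in both groups. It was 3.25, 3.25, 3.70, 4.84 and 4.17 FPKM in IncPBF lungs and 2.38, 3.66, 2.97, 3.26 and 3.03 FPKM in sham lungs, on 85 to 172 fragments a lung. The log2 fold change was 0.32 (SE 0.13, limma adjusted p = 0.0919), and 3 of the 5 IncPBF lungs lay above all sham lungs. In GENCODE M21, 1349 of its 1988 exon bases (67.9%) are also exon of genes on the opposite strand, 1241 of them of Gm48529 (chromosome 9 from 45930112 to 45933738). Whether the libraries kept the strand and whether the counting used it is not settled by the sources used here, which name the kit in more than 1 way. Without strand, fragments of Tagln and of these partners cannot be told apart, and how fragments shared between genes were counted is not given either. The level of Tagln in the table is therefore uncertain. Overlaps of this kind covered 16.3% of the exon bases of Smtn, 6.85% of those of Mylk, 5.86% of those of Des and none in the other members.

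**Figure D1:**
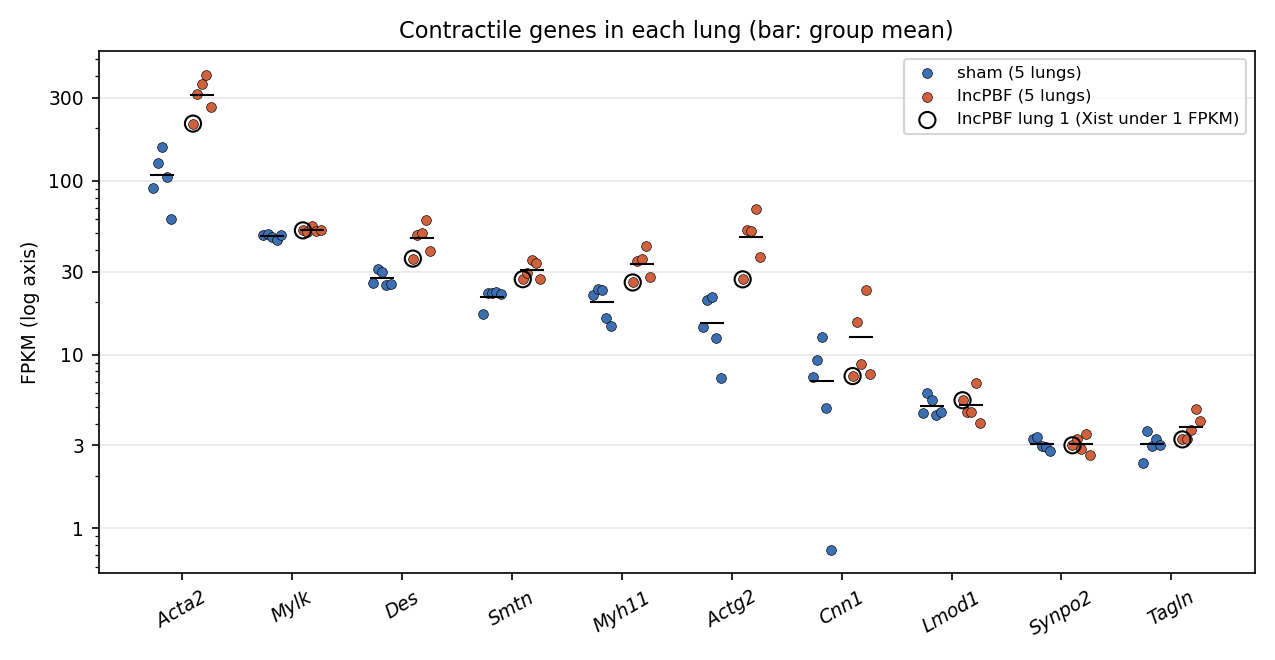
FPKM (log axis) of the 10 contractile genes in each sham lung (blue) and IncPBF lung (orange), with the group mean as a bar and IncPBF lung 1, the IncPBF lung with Xist under 1 FPKM, ringed. The groups are separate for Acta2, Mylk, Des, Smtn, Myh11 and Actg2, and Cnn1 in sham lung 5 is far below the rest at 0.756 FPKM.

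For the 6 genes that passed, the lowest IncPBF lung exceeded the highest sham lung, and such separation was found for 12.0% of all genes tested. Because FPKM are per length, the levels of the genes can be set in order. In sham lungs the order of the means was Acta2, Mylk, Des, Smtn, Myh11, Actg2, Cnn1, Lmod1, Synpo2 and Tagln. Synpo2 and Tagln both had a sham mean of 3.06 FPKM, with Synpo2 above Tagln in 2 of 5 sham lungs. Tagln, whose level is uncertain, was above Synpo2 in 4 of 5 IncPBF lungs. In IncPBF lungs Actg2 was in the third place, behind Acta2 and Mylk, although it exceeded the next gene, Des, in only 3 of 5 lungs and was itself below Mylk in 3 of 5. By group mean only, Smtn and Myh11 changed places. Smtn was above Myh11 in just 2 of 5 sham lungs, and Myh11 was above Smtn in 4 of 5 IncPBF lungs.

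To ask whether the genes rose by the same factor, each was set relative to Myh11 in the same lung. The ratio of Acta2 to Myh11 was 8.21, 9.15, 10.1, 9.64 and 9.56 in IncPBF lungs and 4.10, 5.33, 6.62, 6.46 and 4.11 in sham lungs. Acta2 thus rose by 0.84 more than Myh11 on the log2 scale (exact permutation p = 0.00794), with IncPBF lung 1 also above every sham lung. Actg2 rose by 0.92 more than Myh11 (exact permutation p = 0.00794). Des kept pace, with a difference of 0.01, and its log2 ratio to Myh11 varied by an SD of only 0.019 among IncPBF lungs against 0.23 among sham lungs.

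The ratios to Myh11 of Lmod1, Mylk and Synpo2 were lower in IncPBF lungs, with differences of -0.72, -0.61 and -0.74 on the log2 scale (exact permutation p = 0.00794 each, on log2(FPKM + 0.1)). Without the pseudocount, an alternative chosen after the data were seen, the groups overlapped for Lmod1 (exact permutation p = 0.0159), which stood at 0.2101 of Myh11 in IncPBF lung 1 and at 0.2095 in sham lung 1. For Mylk they stayed apart by little, at most 1.99 in IncPBF lungs and at least 2.01 in sham lungs. Smtn (-0.22), Tagln (-0.42) and Cnn1 (0.40) did not pass. In limma, among the 9 ratios, the same 2 were higher and the same 3 lower (adjusted p from 0.000886 to 0.0162), against 0.734% of genes higher and 71.2% lower relative to Myh11. All genes share the values of Myh11 in that fit, and the permutation p values are therefore given first. Lmod1, Synpo2 and Mylk themselves had log2 fold changes of 0.01, -0.01 and 0.13. Their lower ratios follow from the rise of Myh11 (0.73), as for most genes. With log2 Xist as a covariate none of the 5 differences passed in limma: they were 0.62 for Acta2, 0.50 for Actg2, -0.29 for Lmod1, -0.27 for Mylk and -0.41 for Synpo2 (adjusted p from 0.541 to 0.720).

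**Figure D2:**
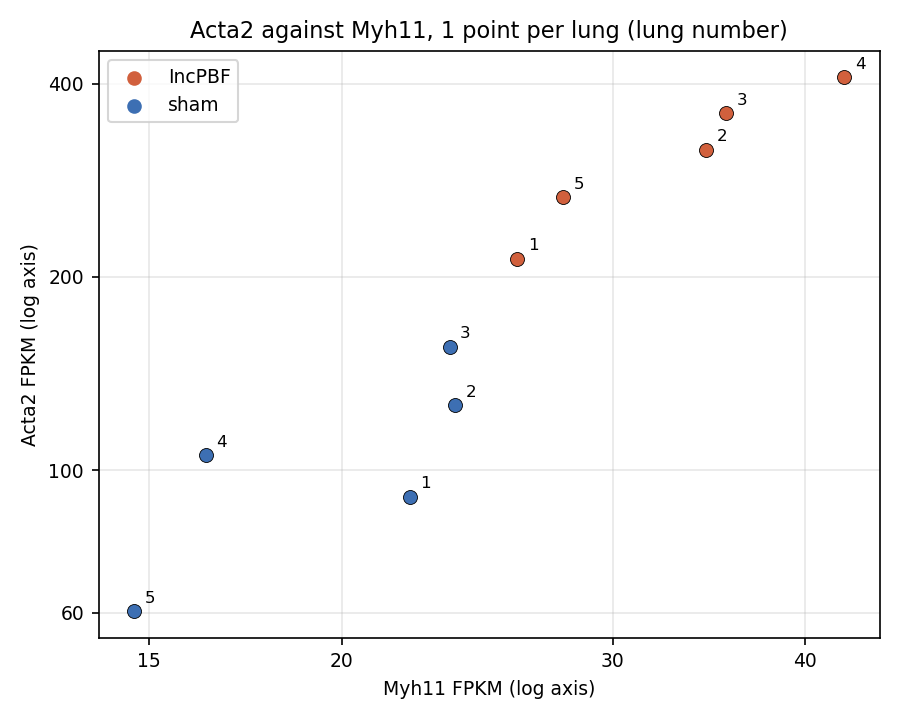
Acta2 FPKM against Myh11 FPKM (both log axes), 1 point per lung with the lung number, IncPBF in orange and sham in blue. Over the 10 lungs Acta2 runs from 60.3 to 409 FPKM while Myh11 runs from 14.7 to 42.4 FPKM, and the IncPBF points lie above the sham points.

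Within groups the genes varied together to different degrees. IncPBF lung 4 held the highest value of 8 of the 10 genes in its group and IncPBF lung 1 the lowest value of 6. Among sham lungs, lung 2 held the highest value of 6 genes and lung 5 the lowest of 5. After subtraction of the group mean, Acta2 and Actg2 were correlated with r = 0.96 and Myh11 and Actg2 with r = 0.95 over the 10 lungs. All genes of a lung share its depth and tissue make-up, which differed between lungs. Of the 45 pairs, 8 had r above 0.8, and without sham lung 5 also 8. Mylk, by contrast, correlated with the mean of the other members with r = 0.13 in the 9 lungs without sham lung 5.

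**Figure D3:**
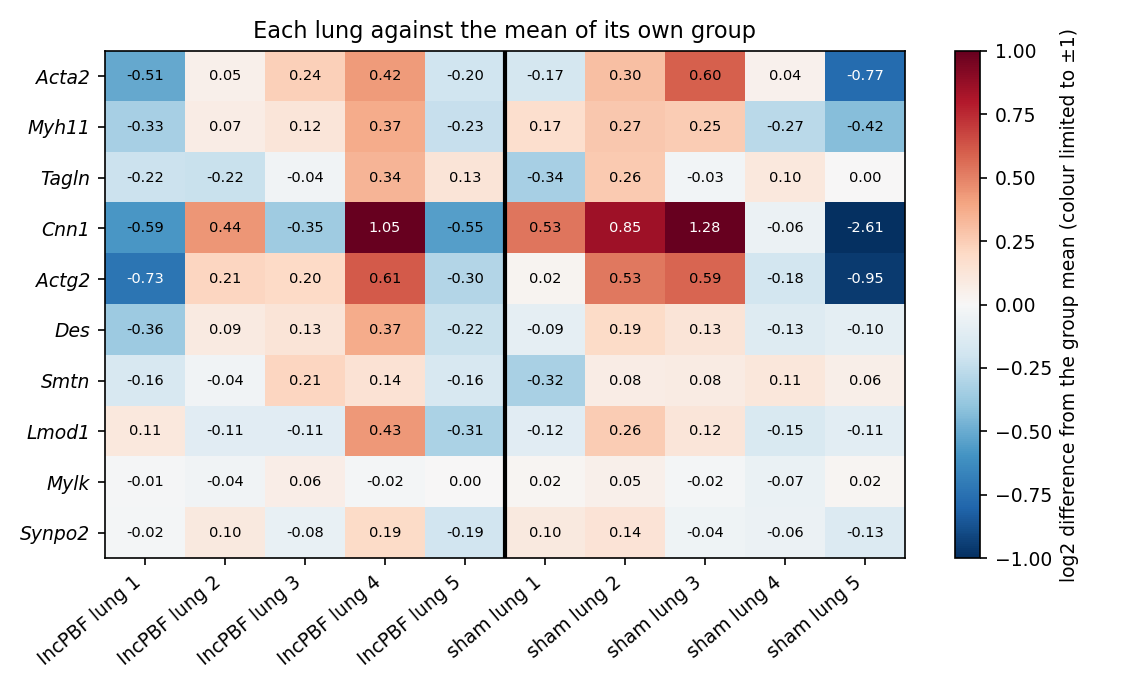
Difference of log2(FPKM + 0.1) from the mean of the lung's own group, for 10 genes (rows) and 10 lungs (columns), with colour limited to ±1 and the value written in each cell. IncPBF lung 4 is above its group mean for all genes but Mylk, and the lowest cell is Cnn1 in sham lung 5 at -2.61.

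The genes outside all lists used here whose differences from the group mean were most like the mean difference of the 10 members over the 10 lungs were Cfap298, a gene of motile cilia (r = 0.966), Sdhb, a subunit of succinate dehydrogenase (0.964), the beta-tubulin Tubb4b (0.944), Rpp38 (0.937) and Odf3b (0.934). Sham lung 5 weighs in these values, and without it they were 0.939, 0.938, 0.903, 0.883 and 0.888. Of the 5 only Rpp38, a subunit of ribonuclease P, differed between the groups, with a log2 fold change of 1.11 (limma adjusted p = 0.000795).

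IncPBF lung 1 lay above all 5 sham lungs for each of the 6 genes that passed, and it had the lowest value among IncPBF lungs for Acta2, Actg2, Myh11, Des and Smtn. With log2 Xist as a covariate, the log2 fold changes were 1.01 for Acta2, 0.89 for Actg2, 0.39 for Myh11, 0.38 for Des, 0.34 for Smtn and 0.12 for Mylk. With IncPBF lung 1 alone against the 5 sham lungs, they were 1.06, 0.92, 0.40, 0.38, 0.35 and 0.11. In neither fit did any of the 10 genes pass, and only 2.13% and 0.273% of all genes tested were called higher. The sizes in these fits rest on IncPBF lung 1. How much of each difference goes with the surgery and how much with the sex-linked pattern cannot be told apart in these lungs.

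**Figure D4:**
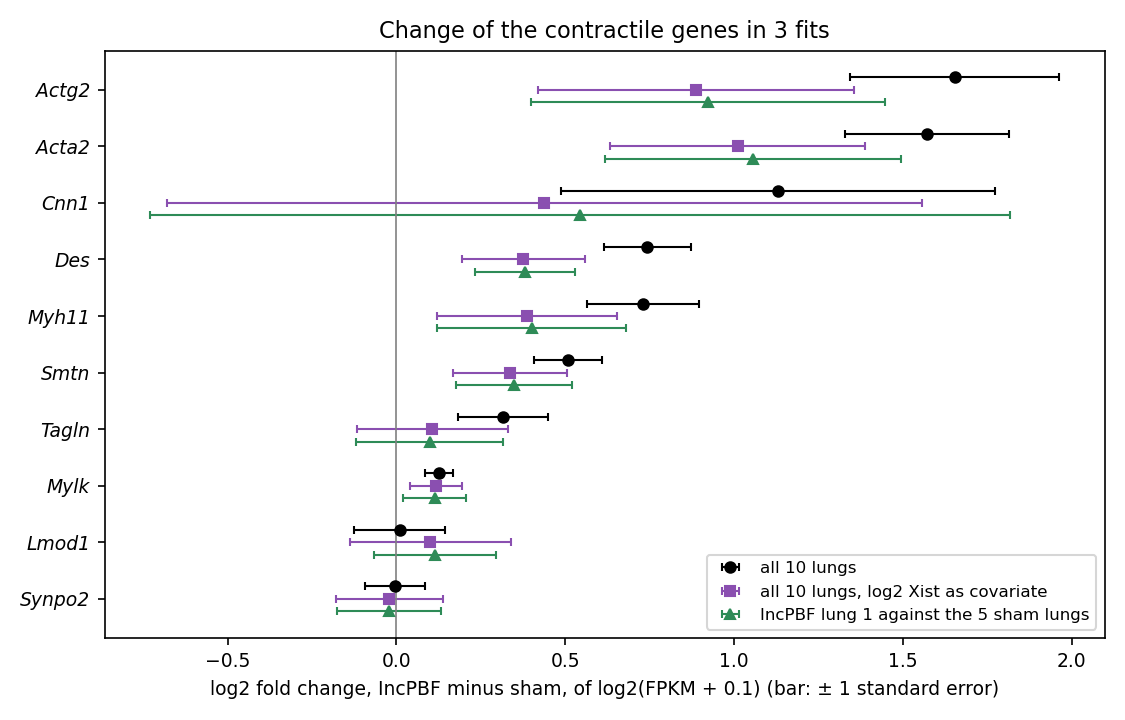
Log2 fold change of the 10 contractile genes (IncPBF minus sham, bars ± 1 standard error) in all 10 lungs (circles), with log2 Xist as a covariate (squares) and for IncPBF lung 1 against the 5 sham lungs (triangles). Acta2 goes from 1.57 to 1.01 and 1.06, Myh11 from 0.73 to 0.39 and 0.40, and Lmod1 and Synpo2 stay near 0.

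The partners of the contractile genes were read from a list of 17 genes with a median log2 fold change of 0.32. Of these, 11 were higher and 2 lower (16.1% and 16.2% of all genes tested), and 4 did not pass. Among the higher ones, Pdlim3, a protein of the actin anchoring sites of muscle, went from 5.34 ± 1.32 to 19.1 ± 2.30 FPKM, a log2 fold change of 1.85 (limma adjusted p = 2.24e-05). The regulatory light chain Myl9, the substrate of Mylk, went from 111 ± 27.0 to 221 ± 33.0 FPKM (log2 fold change 1.01, limma adjusted p = 0.000947). Tropomyosin 2 (Tpm2) rose by 1.30 and tropomyosin 1 (Tpm1) by 0.45 on the log2 scale, Cald1 (caldesmon) by 0.45 and the actin cross-linkers Actn1 and Flna by 0.50 and 0.32. Pdlim7, Ppp1r12b, Csrp1 and Myl6 were the other genes that rose, by 0.74, 0.42, 0.30 and 0.30.

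The phosphatase subunit Ppp1r12a (-0.05), its inhibitor Ppp1r14a (0.06) and vinculin (Vcl, -0.11) were among the genes that did not pass. With log2 Xist as a covariate, Pdlim3 was the 1 gene of the list called higher (1.68), and 2 were called lower. Without sham lung 5, 9 genes were higher and 2 lower (13.5% of all genes were then higher), and without IncPBF lung 1, 10 and 2. Csrp1 and Myl6 lost their calls without sham lung 5 (limma adjusted p = 0.0673 and 0.0771), and Csrp1 also without IncPBF lung 1 (0.0650). IncPBF lung 1 alone against the sham lungs gave no call in the list.

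The cytoplasmic actins and myosins rose in part: Actb, Actg1 and Myh10 were higher (0.47, 0.36 and 0.54) and Myh9 did not pass (-0.21); with log2 Xist as a covariate only Myh10 was called (0.50). Of the 7 genes of the SRF program, 3 were higher and 2 lower (16.1% and 16.2% of all genes tested). Srf itself rose from 19.1 ± 1.19 to 27.2 ± 1.58 FPKM (log2 fold change 0.51, limma adjusted p = 0.000113) without overlap, and it was also called with log2 Xist as a covariate (0.50). Myocd, the smooth muscle cofactor of SRF, rose from 0.603 ± 0.105 to 1.10 ± 0.181 FPKM (0.77, limma adjusted p = 0.00584), and Klf4, known as an antagonist of that program, by 0.57. Mrtfb, listed as Mkl2, and Gata6 were lower (-0.25 and -0.21), while Mrtfa (listed as Mkl1, -0.19) and Elk1 (0.03) did not pass. With log2 Xist as a covariate Myocd (0.45, limma adjusted p = 0.398), Klf4 (0.49, 0.292), Mrtfb (-0.19, 0.484) and Gata6 (-0.32, 0.118) lost their calls. Mrtfb was also not called without sham lung 5 (0.0730), nor Gata6 without IncPBF lung 1 (0.0550).

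Among the 7 channels and receptors of smooth muscle tested, none was higher and 2 were lower (16.1% and 16.2% of all genes). Agtr1a, an angiotensin II receptor, fell from 15.2 ± 2.66 to 6.81 ± 0.776 FPKM (log2 fold change -1.13, limma adjusted p = 9.02e-05), and the muscarinic receptor Chrm2 fell by 0.76 on the log2 scale. Agtr1a was also called with log2 Xist as a covariate (-1.07), and Chrm2 was not. The endothelin receptor Ednra, at 33.6 ± 1.94 and 33.5 ± 1.75 FPKM, the calcium channel Cacna1c (-0.02), the calcium release channel Itpr1 (-0.22), Tbxa2r (0.11) and Kcnmb1 (0.41) did not pass.

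Lists for cells that carry contractile genes did not move as blocks. Over all genes tested, 16.1% were higher and 16.2% lower, or 32.3% in either direction. Of 7 alveolar myofibroblast genes, Tgfbi (1.97), Wnt5a (1.27), Fgf18 (1.22) and Stc1 (1.14) were higher, Pdgfra (-1.36) and Hhip (-0.29) were lower, and Aspn (0.42) did not pass. The summed level of the list was 437 to 549 FPKM in IncPBF lungs and 237 to 386 FPKM in sham lungs. Much of this difference was Tgfbi alone, with means of 232 FPKM in IncPBF lungs and 62.6 FPKM in sham lungs. Pdgfra, the receptor that marks myofibroblast precursors in the growing septum, fell from 58.1 ± 12.4 to 22.4 ± 3.42 FPKM without overlap. The 4 higher genes were also called with log2 Xist as a covariate, as was the fall of Pdgfra (-1.08). Hhip was not called in that fit or without sham lung 5. Of 8 pericyte genes, Rgs5 (0.68) and Kcnj8 (0.41) were higher, Notch3 (-0.39) was lower and 5 did not pass, with a sum of 259 to 292 FPKM against 234 to 297 FPKM. Of 9 matrix fibroblast genes 3 were higher (Dpt, Col1a1 and Col1a2), Col13a1 was lower and 5 did not pass. No gene of either list was called with log2 Xist as a covariate, Rgs5 (0.56) having a limma adjusted p of 0.0564. Without sham lung 5 Notch3, Col1a1 and Col13a1 lost their calls (0.0804, 0.0782 and 0.0812), and without IncPBF lung 1 Notch3 and Col13a1 did (0.0613 and 0.0838).

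Other tissues that could bring contractile transcripts into a lung sample were read the same way, beside 16.1% higher and 16.2% lower of all genes. Of 10 cardiac muscle genes 6 were tested and none passed. Their sum was 33.9 to 102 FPKM in IncPBF lungs and 8.94 to 47.7 FPKM in sham lungs, and 28.0 to 47.7 FPKM without sham lung 5. Actc1, with means of 51.5 and 29.5 FPKM, made up 71.9% to 93.7% of this sum. Of 10 skeletal muscle genes 3 were tested and none passed, with sums of 1.47 to 10.9 and 1.29 to 2.16 FPKM, although Tnnt3 was called higher without IncPBF lung 1 (1.49, limma adjusted p = 0.0282). Of the mesothelium list, Msln (-0.88), Upk3b (-1.27), Upk1b (-0.81) and Lrrn4 (-1.76), the 4 genes tested, were lower. Its sums were 46.6 to 75.9 FPKM against 82.1 to 158 FPKM, or 82.1 to 116 FPKM without sham lung 5. Only Upk1b was called with log2 Xist as a covariate (-0.73), and without sham lung 5 Upk3b was not (limma adjusted p = 0.0502). None of 6 airway epithelium genes passed. Of 6 alveolar epithelium genes 4 were lower (Ager, Hopx, Rtkn2 and Sftpb), of 5 endothelium genes 3 were lower (Pecam1, Cdh5 and Tek), and of 6 cartilage genes the 1 tested, Sox9, was higher. None of these 8 genes was called with log2 Xist as a covariate, and all 8 were called without sham lung 5 and without IncPBF lung 1. With IncPBF lung 1 alone against the sham lungs, no gene of the lists for these tissues, pericytes or matrix fibroblasts was called. The part of these tissues in the levels of the contractile genes was not tested.

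**Figure D5:**
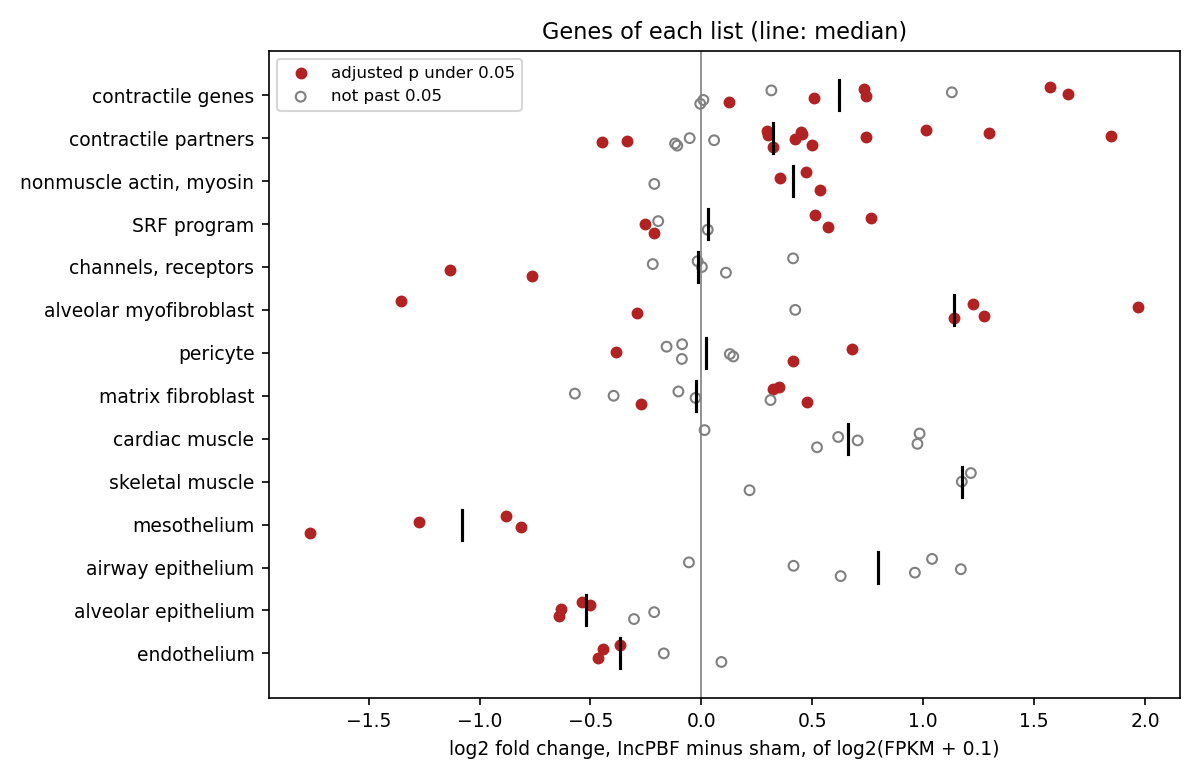
Log2 fold change (IncPBF minus sham) of every tested gene in 14 lists, filled where the adjusted p is under 0.05, with the median of each list as a vertical line. The contractile genes have a median of 0.62, their partners 0.32, the alveolar myofibroblast list 1.14 and the mesothelium list -1.08.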

How the data were processed

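The authors deposited 1 table of FPKM per gene with gene lengths, from whole lungs prepared with a NEBNext Ultra kit and sequenced on a NovaSeq instrument. The submitters' processing notes name Bowtie 0.12.2 and the builds hg38, GRCm38 and mm10; the counting software is not given in the sources used here. RNA was isolated with Trizol per the labels and with a column kit per the methods. Positions are those of the table, on GRCm38. Of the 54495 genes shared with GENCODE M21, 53462 had identical chromosome, start and end, and Acta2 was among those that differed. In the table the 5 IncPBF columns are named differently from their titles, so they were mapped to the group and not to single titles. Since 100% of the deposited values were whole multiples of the worth of 1 fragment, the fragments were recovered; they cover counting error only.

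Genes with a mean of at least 0.5 FPKM entered a linear model of log2(FPKM + 0.1) in limma 3.58.1 (R 4.3.3; lmFit, eBayes with a trend) over all 10 lungs without covariates, with Benjamini-Hochberg adjustment over all 15388 genes. The pseudocount understates the change of low genes. Permutation tests were exact and two-sided over 252 assignments. Nothing in the labels says that the lungs came from separate litters, so p values measure the spread between these lungs. The members and the 15 other lists (114 genes) were chosen with earlier results of these data known. The genes named are all members, most genes of the lists past the threshold with up to 5 others of a list, and the 5 genes most like the members. The 2 lower contractile partners and the 4 lower Y-linked genes are not named. The scripts were tested on simulated data, and upstream sequences came from RefSeq on GRCm38.p6, which held 7 of the 10 members. Python 3.11.15, pandas 2.3.3 and matplotlib 3.10.9 were used for summaries and figures. No sequencing batch is given, and replicate numbers were not used for pairing. Values of some genes of the contractile partners list are not reported here.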

Additional observations from a re-analysis of the deposited data

Results flagged for a closer look

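Groups of 5 lungs were checked for a lung whose gap to its nearest neighbour exceeded 0.71 of the group's range, over 48 groups, of which chance alone flags about 1 in 20. Smtn in sham lung 1, at 17.0 FPKM, lay below the other sham lungs at 22.2 to 23.1 FPKM (gap of 0.857 of the range). The summed FPKM of the alveolar myofibroblast list in IncPBF lung 1, at 437 FPKM, lay below the other IncPBF lungs at 532 to 549 FPKM (gap of 0.845 of the range), and this lung is the IncPBF lung with Xist under 1 FPKM. The cause of either value was not tested.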

How the results depend on the processing

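The number of contractile genes called higher, 6 as reported, was 0 with log2 Xist as a covariate and 0 with the lungs without Xist only, and 5 to 7 under the other settings. It was 5 to 6 when each lung was left out in turn, and no called gene changed sign under any setting. Without each lung the log2 fold changes ran from 1.38 to 1.72 for Acta2, 1.41 to 1.84 for Actg2, 0.63 to 0.81 for Myh11, 0.65 to 0.83 for Des, 0.43 to 0.55 for Smtn, 0.48 to 1.45 for Cnn1, 0.23 to 0.38 for Tagln, 0.11 to 0.14 for Mylk, -0.10 to 0.09 for Lmod1 and -0.05 to 0.04 for Synpo2. Mylk was also not called by eBayes without the trend, by limma-voom on the recovered fragments or with no filter, and Tagln was called with an equal total per lung (adjusted p = 0.0470 from limma, which without each lung ran from 0.0579 to 0.204). Relative to Myh11, 2 to 3 ratios were higher and 3 to 4 lower without each lung, and 0 and 0 with log2 Xist as a covariate. Same-numbered lungs of the groups did not deviate together (correlations from -0.0675 to 0.0854), and with the replicate number as a block 5 members were called, Mylk being lost (adjusted p = 0.0784 from limma), and the calls relative to Myh11 numbered 2 and 3 as without it.

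Of the contractile partners, 11 higher became 1 with log2 Xist as a covariate and 0 with the lungs without Xist only, where 2 lower became 0. Without each lung 9 to 11 were higher and 2 were lower. For the nonmuscle list, 3 higher became 1 and 0 in these fits and 3 without each lung; for the SRF list, 3 higher became 1 and 0 and 2 lower became 0 and 0. The SRF list kept 3 higher and had 0 to 2 lower without each lung, and 1 lower with the airway covariate, an equal total per lung or no filter. For the alveolar myofibroblast list the count of 4 higher became 1 with the lungs without Xist only, and 2 lower became 1 with log2 Xist or the airway mean as a covariate, eBayes without the trend, an equal total or no filter, and 0 with the lungs without Xist only; without each lung it was 4 to 5 higher and 1 to 2 lower. The channels and receptors list had 2 lower, 1 with log2 Xist as a covariate, 0 with the lungs without Xist only, and 2 to 3 without each lung. The cause of these losses was not tested, but the fit of the lungs without Xist has 1 IncPBF lung, which is assumed to vary like the sham lungs.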
